A study of Mus musculus with 4 samples.

Results

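The endothelial cell genes *Pecam1*, *Cdh5*, *Kdr*, *Flt1*, *Tie1*, *Tek*, *Vwf*, *Cldn5*, *Egfl7* and *Plvap* were followed across 4 RNA-Seq libraries prepared from lung tumor-infiltrating CD4+ T cells. The 10 genes were listed by name, as known markers of the cells that line blood vessels, and the list sets no threshold on a measured value. The genes were chosen with earlier results of these data known. They are 10 of the 25239 gene symbols listed for each library. All 10 passed the filter on low counts that left 13919 genes for testing. Of the 4 libraries, 2 were labelled WT and 2 were labelled CD4/ALK4-KO. Both groups were C57BL/6 mice that carried lung tumors of LLC-OVA, a Lewis lung carcinoma line expressing ovalbumin, injected into a vein, and the labels place tumor excision at days 18 to 22, whereas the study's methods give a somewhat earlier range of days for the CD4/ALK4-KO experiment. The study's methods give male mice of 8 to 10 weeks of age. CD4/ALK4-KO mice were CD4CreERT2+/-/Acvr1bfl/fl, in which a tamoxifen-inducible Cre driven by *Cd4* regulatory sequence deletes *Acvr1b*, which encodes ALK4, a receptor for activin-A, in cells that use *Cd4*. WT mice were wild-type controls, and whether they received tamoxifen is not given in the sources used here. The tissue was digested with Liberase TL and DNase, leukocytes were collected from the interface of 40% and 80% Percoll, and CD4+ T cells were then isolated with a commercial kit. The number of mice behind a library is not given in the sources used here. The series calls the samples of a group biological replicates, and where these did not come from separate mice the p-values measure only the spread between the libraries.

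Endothelial cells line every blood vessel, are held together by junctions and receive growth and stability signals through receptor tyrosine kinases. Vascular endothelial growth factors (VEGF) act through the receptors encoded by *Kdr* and *Flt1*, and angiopoietins through the receptor encoded by *Tek*, whose relative is encoded by *Tie1*. *Pecam1*, *Cdh5* and *Cldn5* encode proteins of the contacts between endothelial cells, *Plvap* a protein of the diaphragms of small vessels, and *Vwf* and *Egfl7* secreted proteins. *Pecam1* is not restricted to endothelium, since platelets, myeloid cells and subsets of lymphocytes also carry its product CD31. In the lung the capillary endothelium is one of the most abundant cell types.

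*Cldn5* and *Egfl7* were the members called lower under the CD4/ALK4-KO label, so the DNA before their annotated start sites is shown. The sequences are those of the RefSeq promoter table on GRCm38.p6, in which 6 of the 10 members were found with 8 start sites. Each line is read along the plus strand, holds the bases before the start site and ends before the first base of any annotated exon. Capitals mark the words CAGGAA and CCGGAA and their reverse complements, which contain the core recognised by ETS factors, the family to which *Ets1*, *Fli1* and *Erg* belong.
Cldn5, chr16:18776597-18776846: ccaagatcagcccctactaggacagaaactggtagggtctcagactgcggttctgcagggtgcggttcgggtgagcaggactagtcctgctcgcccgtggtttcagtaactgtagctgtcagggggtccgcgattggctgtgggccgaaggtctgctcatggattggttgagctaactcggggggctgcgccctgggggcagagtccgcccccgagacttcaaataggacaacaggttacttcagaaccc
Egfl7, first start site, chr2:26580833-26581055: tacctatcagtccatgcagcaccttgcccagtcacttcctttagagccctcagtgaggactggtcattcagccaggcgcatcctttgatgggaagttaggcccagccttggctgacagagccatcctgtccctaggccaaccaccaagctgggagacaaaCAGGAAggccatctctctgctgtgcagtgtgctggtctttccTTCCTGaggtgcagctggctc
Egfl7, second start site, chr2:26583615-26583863: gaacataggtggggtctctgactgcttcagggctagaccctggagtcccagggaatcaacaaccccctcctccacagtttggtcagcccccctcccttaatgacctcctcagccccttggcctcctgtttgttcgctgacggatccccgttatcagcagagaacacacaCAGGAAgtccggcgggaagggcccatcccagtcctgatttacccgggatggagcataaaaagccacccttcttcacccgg
Egfl7, last start site, chr2:26586386-26586629: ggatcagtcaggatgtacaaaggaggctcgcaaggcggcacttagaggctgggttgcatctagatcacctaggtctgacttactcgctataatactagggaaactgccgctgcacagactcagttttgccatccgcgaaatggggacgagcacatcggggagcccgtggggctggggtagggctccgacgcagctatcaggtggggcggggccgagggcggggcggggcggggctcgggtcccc
The first *Egfl7* window held these words 90 and 48 bases before the start site and the second held one 81 bases before it. The *Cldn5* window and the last *Egfl7* window held none. Among all 8 windows of the members, each searched over the 250 bases before the start site on both strands, 5 windows of 4 genes held an ETS word, compared with 35.1% of the 32851 windows in the table. *Kdr* had one 153 bases before its start, *Tek* had them 89 and 59 bases before, and *Tie1* had one 209 bases before. The SOX word ACAATG was in 0 of the 8 windows and in 10.7% of all windows. The word GGGCGG, bound by Sp1, was in 4 of the 8 windows and in 32.7% of all windows. These matches describe letters and not binding.

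*Egfl7* also hosts the microRNA miR-126, which is known for its abundance in endothelium, in an intron of its coding transcripts. The mature strand is shown because it lies inside the gene with the largest fall among the members. It maps to chr2:26591402-26591423 on the plus strand of GRCm38.p6, and its seed, bases 2 to 8, is in capitals.
mmu-miR-126a-3p: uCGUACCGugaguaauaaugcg
The symbols *Mir126a* and *Mir126b* had 0 counts in all 4 libraries. A count of 0 allows up to 3 counts in a library, and reads of mature microRNAs are not what a messenger RNA library is made to hold.

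Total counts per library ranged from 11823908 to 13943237. The targeted gene *Acvr1b* (GRCm38 chromosome 15, 101174067 to 101213684) had 426 and 342 counts under the WT label and 322 and 445 counts under the CD4/ALK4-KO label. It did not separate the groups (log2 fold change 0.16 ± 0.24 SE, edgeR adjusted p = 0.66), and directions are therefore given between libraries as labelled. These are counts over the whole gene, in which a deletion of single exons cannot be seen. T cell genes were present in every library and all 14 of 14 listed T cell genes were higher under the CD4/ALK4-KO label on the TMM scale, with a summed level of 568 and 518 CPM against 2954 and 2823 CPM. CPM are counts scaled to the library size after the TMM adjustment of edgeR. *Cd4* itself had 759 and 649 counts against 3654 and 4033 counts. Genes of macrophages, fibroblasts and lung epithelium were present in every library as well. Over all genes tested, 32.8% had an adjusted p under 0.05, with 2140 lower and 2422 higher under the CD4/ALK4-KO label, and the median log2 fold change was -0.0082.

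The 10 endothelial cell genes together held 1053 and 1233 counts under the WT label and 1570 and 1908 counts under the CD4/ALK4-KO label. Scaled to the total counts, without TMM, this was 75.9 (exact binomial 95% interval 71.4 to 80.6), 88.4 (83.6 to 93.5), 131 (125 to 138) and 161 (154 to 169) CPM. Such intervals cover counting error only. The rise lay in *Pecam1*, which held 29.3% and 46.8% of the members' counts under the WT label, and 80.5% and 70.0% under the CD4/ALK4-KO label. On the TMM scale the other 9 genes gave 54.3 and 48.5 CPM under the WT label, and 25.7 and 46.3 CPM under the CD4/ALK4-KO label. Their sum on that scale was lower in both CD4/ALK4-KO-labelled libraries, clearly so in replicate 1 and by little in replicate 2. Without TMM, replicate 2 of CD4/ALK4-KO (572 of 11823908 counts) was not below WT replicate 2 (656 of 13943237 counts). In whole-population RNA, fewer cells of a type and less RNA per cell cannot be told apart.

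Of the 10 genes, 2 were lower (*Egfl7* and *Cldn5*), 1 was higher (*Pecam1*) and 7 did not pass the test. Among all genes tested 15.4% were called lower and 17.4% higher. The members' median log2 fold change was -0.74, compared with -0.0082 for all genes. On the TMM scale the 2 groups of libraries did not overlap for 6 genes, 5 of them lower and 1 higher. Of all genes tested, 34.0% were lower without overlap and 32.7% higher without overlap on that scale. *Cdh5* was among the 5 only after TMM. Group values are given as mean ± SD over n = 2 libraries.

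**Figure D1:**
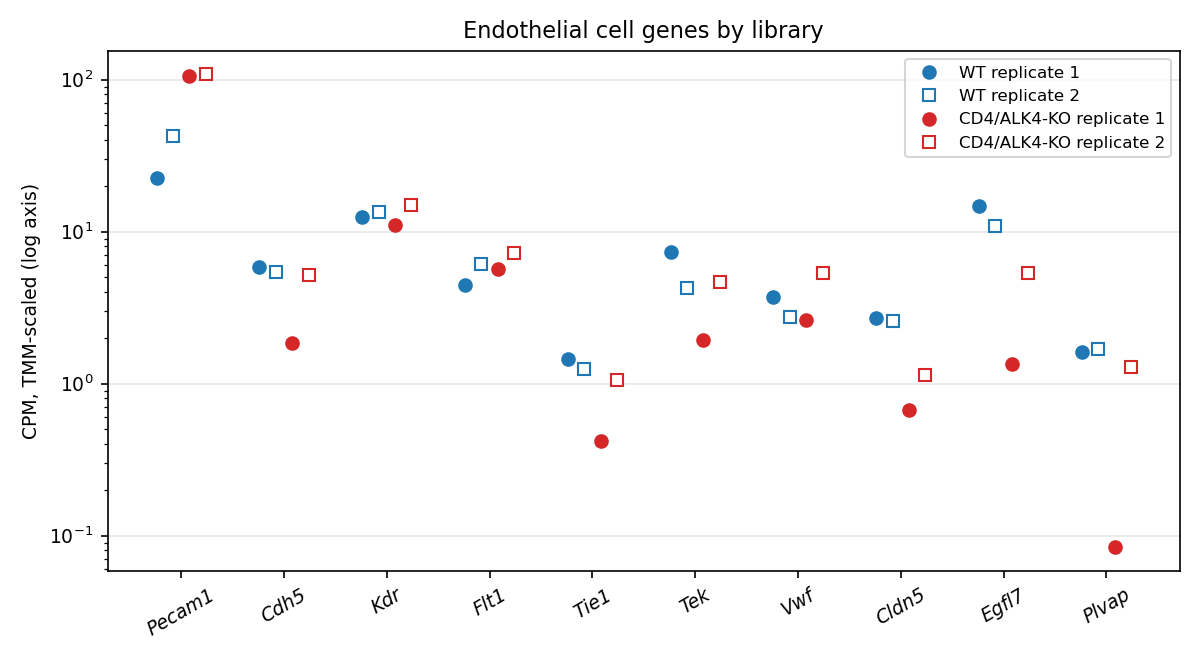
Level of each endothelial cell gene in each of the 4 libraries, in TMM-scaled CPM on a log axis. Filled circles are replicate 1 and open squares replicate 2, blue for WT and red for CD4/ALK4-KO. *Pecam1* is at 106 and 108 CPM under the CD4/ALK4-KO label, above 22.5 and 42.7 CPM in WT, and replicate 1 of CD4/ALK4-KO is the lowest library for 8 of the 10 genes.

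Junction and adhesion genes were taken first. *Pecam1* (chromosome 11, 106654217 to 106750628, minus strand, with 17 merged exons) encodes CD31, an immunoglobulin-family adhesion molecule of endothelial contacts, leukocytes and platelets. It had 309 and 577 counts under the WT label and 1264 and 1336 counts under the CD4/ALK4-KO label, or 22.5, 42.7, 106 and 108 CPM. Both CD4/ALK4-KO-labelled libraries were above both labelled WT, and they lay close together while the WT-labelled libraries differed. The means were 32.6 ± 14.2 and 107 ± 1.43 CPM, a ratio of 3.29, and the log2 fold change was 1.72 (SE 0.26, 95% interval 1.19 to 2.25, edgeR adjusted p = 2.5e-05). With the libraries scaled to T cell receptor genes in place of TMM, the same gene was lower, at -0.67.

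*Cdh5* (chromosome 8, 104101625 to 104144511, plus strand) encodes VE-cadherin, the adhesive protein of endothelial adherens junctions and among the members most restricted to endothelium. It had 80 and 73 counts under the WT label, and 22 and 64 counts under the CD4/ALK4-KO label. Their levels were 5.84, 5.40, 1.85 and 5.18 CPM. On the TMM scale the groups did not overlap, but replicate 2 of CD4/ALK4-KO lay just under the WT-labelled libraries and replicate 1 far under them. Without TMM, replicate 2 of CD4/ALK4-KO (64 of 11823908 counts) was not below WT replicate 2 (73 of 13943237 counts). The log2 fold change of -0.67 (SE 0.44, 95% interval -1.59 to 0.24) did not pass the test, with an adjusted p of 0.26 in edgeR. An antisense transcript, *Gm29682*, overlaps *Cdh5* over 4249 bp and had 0 counts in all libraries.

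*Cldn5* (chromosome 16, 18776847 to 18778262, plus strand, a single exon) encodes claudin-5, the main claudin of endothelial tight junctions. Its counts were 37 and 35 under the WT label and 8 and 14 under the CD4/ALK4-KO label, or 2.70, 2.59, 0.672 and 1.13 CPM. Both CD4/ALK4-KO-labelled libraries were below both labelled WT, at means of 2.64 ± 0.080 and 0.903 ± 0.327 CPM, a ratio of 2.93. The log2 fold change was -1.54 (SE 0.59, 95% interval -2.76 to -0.32), and the edgeR adjusted p was 0.0486. The call is at the edge of the threshold and did not hold under DESeq2's Wald test, where the adjusted p was 0.11.

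Neither VEGF receptor gene passed the test, and their groups overlapped. *Kdr* (chromosome 5, 75932827 to 75978458, minus strand) encodes VEGFR2, the main signalling receptor for VEGF-A on endothelium. It had 170 and 183 counts under the WT label and 132 and 186 counts under the CD4/ALK4-KO label, which is 12.4, 13.5, 11.1 and 15.1 CPM. The CD4/ALK4-KO-labelled libraries lay on either side of those labelled WT. The means were 13.0 ± 0.794 and 13.1 ± 2.81 CPM and the log2 fold change was 0.013 (SE 0.29, 95% interval -0.58 to 0.60, adjusted p = 0.98, edgeR). The sign of so small a value changed with upper quartile scaling, where it was -0.051.

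*Flt1* (chromosome 5, 147561604 to 147726011, minus strand) encodes VEGFR1, a high-affinity VEGF receptor that also exists as a soluble trap and is found on monocytes. It had 61 and 83 counts under the WT label and 68 and 89 counts under the CD4/ALK4-KO label, or 4.45, 6.14, 5.71 and 7.21 CPM. The groups overlapped, and the log2 fold change of 0.29 (SE 0.36, 95% interval -0.46 to 1.04, adjusted p = 0.59, edgeR) did not pass the test. The ratio of *Flt1* to *Kdr* counts was 0.359, 0.454, 0.515 and 0.478 in the 4 libraries, the 2 of WT first, so the receptors kept a similar ratio throughout.

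Angiopoietin receptor genes were low in replicate 1 of CD4/ALK4-KO. *Tek* (chromosome 4, 94739289 to 94874976, plus strand) encodes TIE2, the angiopoietin receptor of endothelium and of some monocytes. Its counts were 101 and 58 under the WT label and 23 and 58 under the CD4/ALK4-KO label, at 7.37, 4.29, 1.93 and 4.70 CPM. Replicate 2 of CD4/ALK4-KO lay between the WT-labelled libraries, so the groups overlapped. The log2 fold change was -0.81 (SE 0.45, 95% interval -1.74 to 0.12, adjusted p = 0.17, edgeR).

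*Tie1* (chromosome 4, 118471191 to 118490061, minus strand) encodes an orphan receptor that modulates TIE2 signalling. It had only 20 and 17 counts under the WT label and 5 and 13 counts under the CD4/ALK4-KO label, or 1.46, 1.26, 0.420 and 1.05 CPM. The groups did not overlap, yet the exact Poisson 95% interval of 13 counts, from 6.92 to 22.2, included both counts of the WT-labelled libraries. The log2 fold change of -0.87 (SE 0.68, 95% interval -2.27 to 0.53, adjusted p = 0.35, edgeR) did not pass the test. *Tek* exceeded *Tie1* in counts by ratios of 5.05, 3.41, 4.60 and 4.46 in the 4 libraries, the 2 of WT first.

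Of the genes for secreted proteins, *Egfl7* passed the test and *Vwf* did not. *Egfl7* (chromosome 2, 26580014 to 26593120, plus strand, 19 annotated transcripts) encodes a factor that endothelial cells deposit in the matrix around growing vessels. It had 202 and 147 counts under the WT label but 16 and 66 counts under the CD4/ALK4-KO label, or 14.7, 10.9, 1.34 and 5.35 CPM. Both CD4/ALK4-KO-labelled libraries were below both labelled WT, and replicate 1 was far below replicate 2. The means were 12.8 ± 2.74 and 3.35 ± 2.83 CPM, a ratio of 3.83. The log2 fold change was -1.93 (SE 0.46, 95% interval -2.90 to -0.96, edgeR adjusted p = 0.0045). The log2 fold change of *Egfl7* was below 0 under all 13 alternatives run, from -4.25 to -1.23. The value of -4.25 came with the libraries scaled to T cell receptor genes, where 93.3% of all genes tested were lower. An alternative that paired the replicates crosswise was chosen after seeing the data. The *Egfl7* locus overlaps the last 64 bp of *Agpat2* on the other strand, and *Agpat2*, with 443, 313, 173 and 241 counts, was also lower (log2 fold change -0.70, adjusted p = 0.0496, edgeR). Without a strand-marking kit, reads of such a stretch cannot be told apart, and *Gm20532*, annotated on the same strand over 6482 bp of *Egfl7*, was not analysed here.

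*Vwf* (chromosome 6, 125546774 to 125686679, plus strand) encodes von Willebrand factor, the platelet-tethering protein stored by endothelial cells and megakaryocytes. Its counts were 51 and 37 under the WT label and 31 and 66 under the CD4/ALK4-KO label, at 3.72, 2.74, 2.60 and 5.35 CPM. The CD4/ALK4-KO-labelled libraries were the lowest and the highest of all 4. The log2 fold change was 0.30 (SE 0.46, 95% interval -0.66 to 1.26, adjusted p = 0.67, edgeR).

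*Plvap* (chromosome 8, 71497765 to 71511752, minus strand) encodes the protein of fenestral and caveolar diaphragms and is known as a marker of capillary and tumor vessels. It had 22 and 23 counts under the WT label, and 1 and 16 counts under the CD4/ALK4-KO label, or 1.61, 1.70, 0.084 and 1.30 CPM. The single count in replicate 1 of CD4/ALK4-KO has an exact Poisson 95% interval of 0.025 to 5.57. The groups did not overlap, and the log2 fold change of -1.24 (SE 0.75, 95% interval -2.79 to 0.32, adjusted p = 0.22, edgeR) did not pass the test. *Plvap* overlaps *Gtpbp3* on the other strand over 1819 bp, and *Gtpbp3* had 356, 241, 165 and 170 counts (log2 fold change -0.66, adjusted p = 0.068, edgeR).

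**Figure D2:**
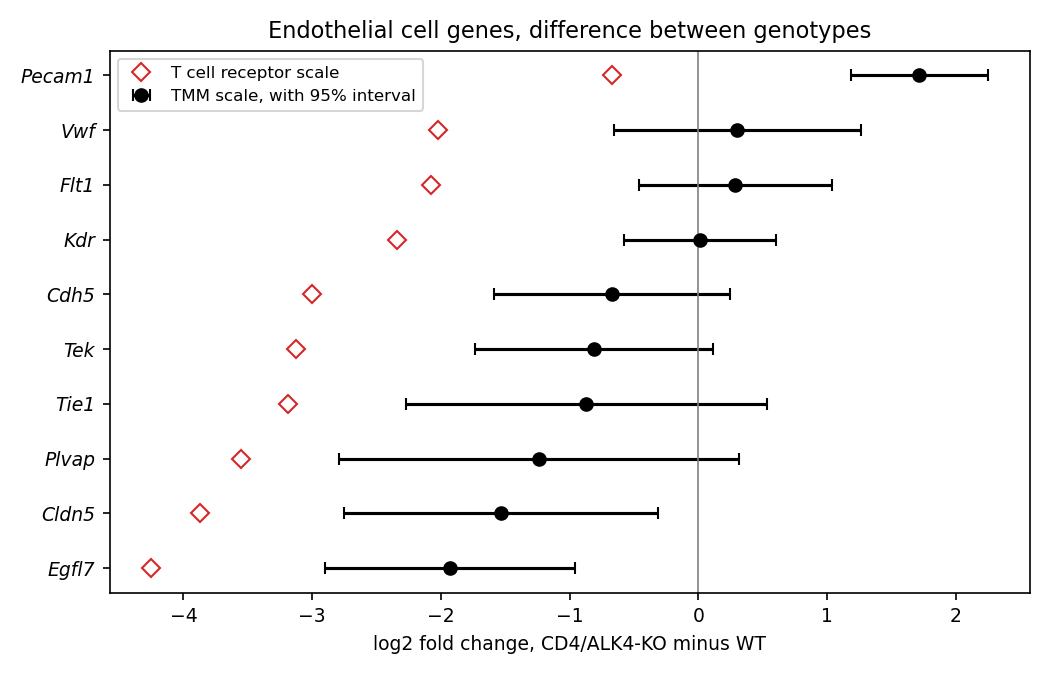
Log2 fold change of each endothelial cell gene, CD4/ALK4-KO minus WT, on the horizontal axis. Black points are TMM-scaled values with 95% intervals from edgeR, and red diamonds the same genes after scaling to T cell receptor genes. The intervals of *Pecam1*, *Cldn5* and *Egfl7* lie clear of 0 on the TMM scale, and all 10 diamonds lie below 0.

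The CD4/ALK4-KO-labelled libraries differed from each other over the whole table and in these genes. All 10 had a higher CPM in replicate 2 than in replicate 1, as did 51.0% of all genes tested and 52 of 72 tested genes of the other vascular lists, and for the 9 genes other than *Pecam1* the summed CPM was 1.80 times higher. *Egfl7* differed most among genes with more than 5 counts in both, at 3.98 times (exact conditional 95% interval 2.28 to 7.36). *Cdh5* differed 2.80 times (1.70 to 4.78 in interval), and *Tek* 2.43 times, with 1.48 to 4.13 as its interval. These intervals lay above 1, as did those of *Vwf* (2.05, from 1.32 to 3.25), *Kdr* (1.36, from 1.08 to 1.71) and *Plvap* (15.4, from 2.40 to 647, resting on a single count). The ratios of *Pecam1* (1.02, from 0.943 to 1.10), *Flt1* (1.26, from 0.910 to 1.76), *Tie1* (2.51, from 0.839 to 8.98) and *Cldn5* (1.69, from 0.661 to 4.64) had intervals that included 1. The intervals hold counting error only, not the spread between samples, and lay above 1 for 29.4% of all genes tested and off 1 in either direction for 59.5%. Between the WT-labelled libraries no such common direction was seen, and the ratio of replicate 1 to replicate 2 ran from 0.529 for *Pecam1* to 1.72 for *Tek*. Without replicate 2 of CD4/ALK4-KO, 5 members were called lower by edgeR in place of 2, with log2 fold changes of -1.60 for *Cdh5*, -1.59 for *Tek* and -4.16 for *Plvap* beside *Cldn5* and *Egfl7*. Without replicate 1 of CD4/ALK4-KO, only *Egfl7* was called lower, and the values were -0.085 for *Cdh5*, -0.28 for *Tek* and -0.32 for *Plvap*. In both fits the spread came from the WT-labelled libraries alone.

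Marker lists of other cells were set beside this spread. From replicate 1 to replicate 2 of CD4/ALK4-KO the summed CPM changed by a ratio of 2.06 for the 8 B cell genes, from 213 to 439 CPM. The ratio was 1.10 for platelet and megakaryocyte genes, 1.08 for pericyte and smooth muscle genes and 0.930 for fibroblast genes. It was 0.795 for lung epithelial genes, 0.956 for T cell genes, 0.975 for macrophage and monocyte genes, 0.647 for neutrophil genes and 0.400 for erythroid genes. Among these sums the B cell list had the ratio nearest to that of the 9 endothelial genes, and its part in the result was not tested. The platelet sum came mostly from *Pf4* and *Ppbp*, whose ratios were 1.55 and 0.641. The other tested platelet genes had ratios of 2.89 (*Gp9*, on 7 and 21 counts), 2.05 (*Tubb1*), 1.77 (*Clec1b*), 1.39 (*Itga2b*), 1.30 (*Itgb3*) and 1.00 (*Gp1ba*).

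**Figure D3:**
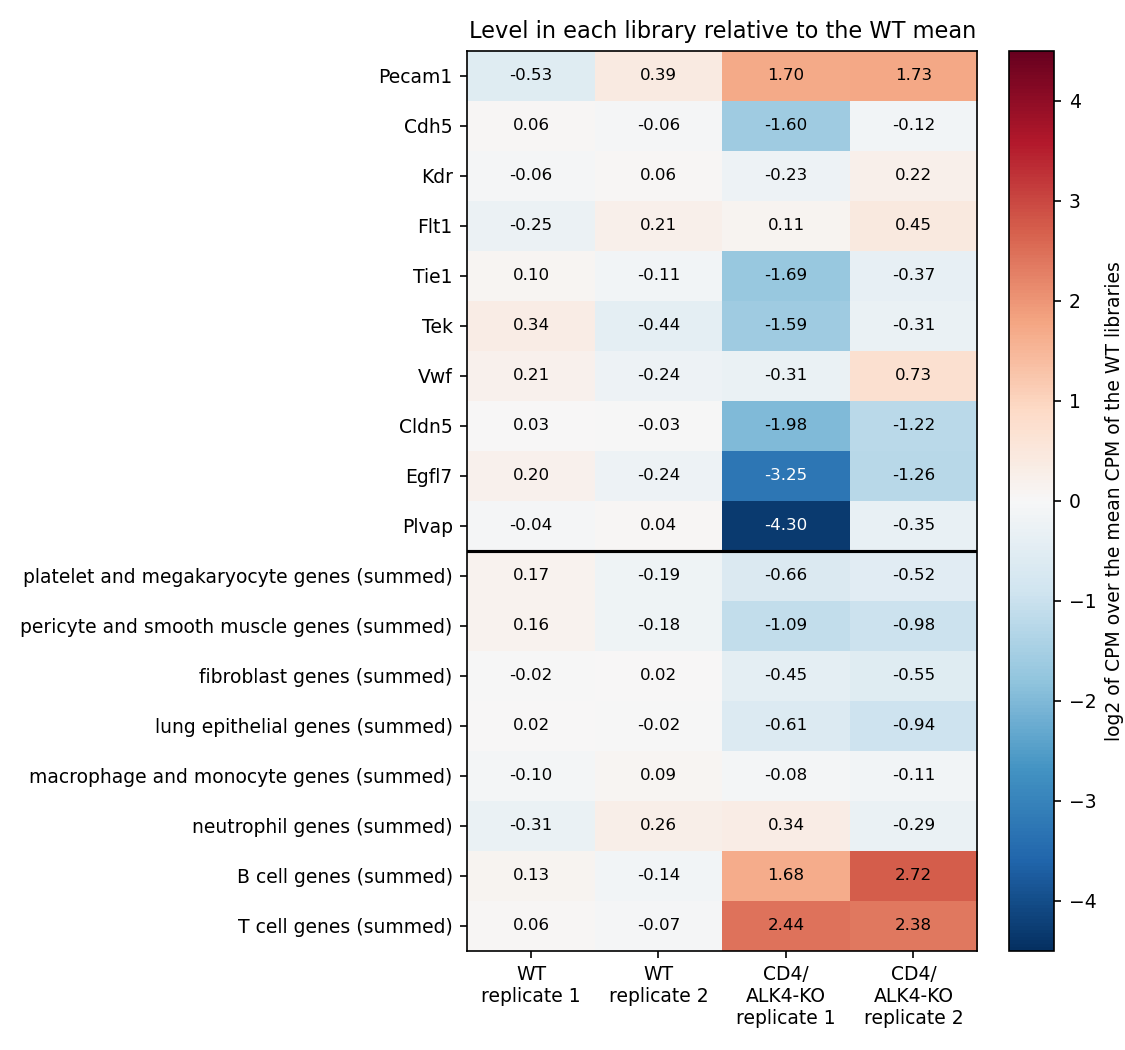
Level in each library as log2 of its CPM over the mean CPM of the WT-labelled libraries, for the 10 endothelial cell genes above the line and the summed CPM of marker lists of other cells below it. Blue is lower and red higher. *Egfl7* reads -3.25 and *Plvap* -4.30 in replicate 1 of CD4/ALK4-KO, against -1.26 and -0.35 in replicate 2, while T cell genes read 2.44 and 2.38.

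The genes did not keep fixed proportions across the libraries. The ratio of *Pecam1* to *Cdh5* counts was 3.86 and 7.90 under the WT label and 57.5 and 20.9 under the CD4/ALK4-KO label. *Egfl7* to *Kdr* was 1.19 and 0.803 under the WT label, and 0.121 and 0.355 under the CD4/ALK4-KO label. *Kdr* to *Cdh5* was 2.13, 2.51, 6.00 and 2.91. All 3 pairs were thus furthest from WT in replicate 1 of CD4/ALK4-KO. *Plvap* to *Cdh5* was 0.275, 0.315, 0.045 and 0.250, so that only replicate 1 of CD4/ALK4-KO, with its single *Plvap* count, stood apart.

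Levels per kilobase used a length that merges the exons of all annotated transcripts, 11 for *Vwf* (16064 bp) and 6 for *Flt1* (13504 bp). Genes with many transcripts can thus rank too low, and the order between genes is approximate. Per kilobase of annotated exon, *Pecam1* was the highest member in both groups, at 5.24 ± 2.28 CPM per kb under the WT label and 17.2 ± 0.229 under the CD4/ALK4-KO label. In the WT-labelled libraries it was followed by *Egfl7* at 3.58 ± 0.765, *Cldn5* at 1.87 ± 0.056, *Kdr* at 1.44 ± 0.088 and *Cdh5* at 1.34 ± 0.074 CPM per kb. Then came *Tek* at 1.24 ± 0.463, *Plvap* at 0.832 ± 0.034, *Flt1* at 0.392 ± 0.088, *Tie1* at 0.276 ± 0.029 and *Vwf* at 0.201 ± 0.043 CPM per kb. *Pecam1* and *Egfl7*, *Cdh5* and *Tek*, and *Tek* and *Plvap* lay within 1 SD of the more variable gene of the pair, and no order is read between them. In the CD4/ALK4-KO-labelled libraries *Kdr* stood next after *Pecam1* at 1.45 ± 0.311 CPM per kb, ahead of *Egfl7* (0.934 ± 0.790), *Cdh5* (0.837 ± 0.561), *Tek* (0.704 ± 0.415) and *Cldn5* (0.638 ± 0.231). *Flt1* (0.478 ± 0.078), *Plvap* (0.347 ± 0.431), *Vwf* (0.247 ± 0.121) and *Tie1* (0.150 ± 0.091) made up the rest. From *Kdr* downwards each gene lay within 1 SD of its neighbour, by the more variable of the pair, so that the place of *Pecam1* alone was clear of the spread there.

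Since the T cell genes rose by a ratio of 5.32 under the CD4/ALK4-KO label, the members were also scaled to 7 genes that encode T cell receptor subunits and its proximal signalling proteins. On that scale all 10 members were lower under the CD4/ALK4-KO label, as were 93.3% of all genes tested (12986 lower and 27 higher), because the scale moved the median of all genes by -2.35. Relative to this shift, *Pecam1* was at 1.69, *Egfl7* at -1.89, *Cldn5* at -1.52 and *Kdr* at 0.015. These lie near the TMM values by construction, since the scaling moves every gene by nearly the same amount. Per unit of T cell receptor RNA, then, *Egfl7* (-4.25) and *Cldn5* (-3.87) had the largest differences and *Pecam1* (-0.67, adjusted p = 0.014, edgeR) the smallest of the 10.

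The signalling around these genes was described with 6 further lists of 88 vascular genes, of which 72 could be tested. Of these, 17 were lower and 12 higher under the CD4/ALK4-KO label on the TMM scale. Over all genes tested 15.4% were lower and 17.4% higher, which is the background for each single list below too. The median log2 fold change of the 72 genes was -0.23. Scaled to T cell receptor genes, 68 were lower and 0 higher by edgeR, close to the 93.3% of all genes that were lower. At an unadjusted p under 0.05, 0 were higher on that scale too. All 12 genes called higher on the TMM scale were below 0 on the T cell receptor scale, between -1.74 and -0.16. A median shift of -2.35 takes smaller rises below 0 by construction. By DESeq2's Wald test, 15 of the 72 were lower and 11 higher on its own scaling, with fewer lower among surface and junction genes (5 in place of 7) and fewer higher among Notch genes (1 in place of 2). The VEGF and angiopoietin ligand list, which is not limited to ligands of the members' receptors, leaned to lower values. Of 7 tested VEGF and angiopoietin ligand genes, 4 were lower and 0 higher by edgeR's quasi-likelihood test, with the same counts at an unadjusted p under 0.05 and by DESeq2's Wald test, and their median log2 fold change was -1.13. *Angpt2*, a ligand of TIE2 released by activated endothelium, had 148 and 80 counts under the WT label and 14 and 27 counts under the CD4/ALK4-KO label (log2 fold change -2.30, adjusted p = 0.00040, edgeR). *Vegfb*, a ligand of VEGFR1, had 223, 159, 46 and 62 counts (-1.65, adjusted p = 0.00054, edgeR). *Pgf*, which encodes placental growth factor and also binds VEGFR1, was lower at -1.53, and *Vegfd*, a ligand of lymphatic vessels, at -1.13. *Vegfa*, the main VEGFR2 ligand, had 1286, 927, 892 and 1011 counts and did not pass the test (-0.050, adjusted p = 0.89, edgeR). *Vegfc* had a value of -0.39 and did not pass either.

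Other vascular receptors were split, with 3 of 13 tested genes lower and 3 higher on the TMM scale, the latter below 0 on the T cell receptor scale. *Eng*, the TGF-β co-receptor endoglin, had 328 and 219 counts under the WT label and 88 and 148 under the CD4/ALK4-KO label (-1.05, adjusted p = 0.011, edgeR). *Nrp2* was lower at -0.95 and *Ackr3* at -1.07. *S1pr1*, the sphingosine-1-phosphate receptor of endothelium and of recirculating lymphocytes, rose from 616 and 676 counts to 1967 and 2362 counts (1.91), and *Cxcr4* (0.69) and *Nrp1* (0.62), which T cells also use, were higher. *Bmpr2* was at -0.20 without passing the test.

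Among 7 tested Notch genes, 1 was lower and 2 were higher on the TMM scale, with the latter below 0 on the T cell receptor scale. *Hes1*, a Notch target, fell by 1.16 on the log2 scale, whereas *Notch1*, which T cells also use, was at 1.80 and *Jag2* at 1.74 and both were higher. *Notch4*, the Notch receptor most restricted to endothelium, had only 35, 21, 11 and 18 counts and did not pass the test (-0.78, adjusted p = 0.34, edgeR). *Jag1* was at 0.46 without passing.

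Of 13 tested endothelial transcription factor genes, 4 were higher on the TMM scale, though below 0 on the T cell receptor scale, and 2 were lower. The higher genes were *Ets1* (2.20), *Fli1* (1.79), *Mef2c* (1.30) and *Ets2* (0.86), of which *Ets1* and *Fli1* are also known as lymphocyte factors and *Mef2c* as a B cell factor. *Gata2*, which acts in endothelium and in mast cells and progenitors, had 151 and 144 counts against 40 and 43 counts (-1.66), and *Foxc1*, a factor of vessels and mesenchyme, had 73 and 68 counts against 12 and 18 counts (-2.06). *Klf2* (0.094) and *Elk3* (0.010) did not pass the test.

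Other endothelial surface and junction genes gave 7 lower and 3 higher of 29 tested on the TMM scale, the latter below 0 on the T cell receptor scale, with a median log2 fold change of -0.24. *Cav1*, the coat protein of caveolae in endothelium, fibroblasts and alveolar epithelium, had 14771 and 13895 counts under the WT label and 5033 and 4006 under the CD4/ALK4-KO label (-1.49, adjusted p = 1.6e-05, edgeR). *Cav2*, its partner, was at -1.34, and *Apln* (-1.52), *Sparcl1* (-1.29) and *Vcam1* (-0.78) were lower as well. *Procr* (-0.71, adjusted p = 0.0480, edgeR) was lower at the edge of the threshold. *Gpihbp1*, which anchors lipoprotein lipase to capillaries, had 34 and 34 counts against 4 and 15 counts (-1.67, adjusted p = 0.0483, edgeR), so that replicate 1 of CD4/ALK4-KO was again the lowest library. *Icam2* (1.27), *Icam1* (1.01) and *Cd93* (0.75), all also found on leukocytes, were higher, and *Cd34* (-0.24) did not pass. Of 3 tested lymphatic endothelial genes 0 passed the adjusted threshold in edgeR or DESeq2 and 1, *Pdpn*, was lower at an unadjusted p under 0.05 in edgeR. Their values were -0.50 for *Pdpn*, -0.47 for *Lyve1* and -0.42 for *Mmrn1*. *Reln* was not tested, with 7, 4, 0 and 14 counts.

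**Figure D4:**
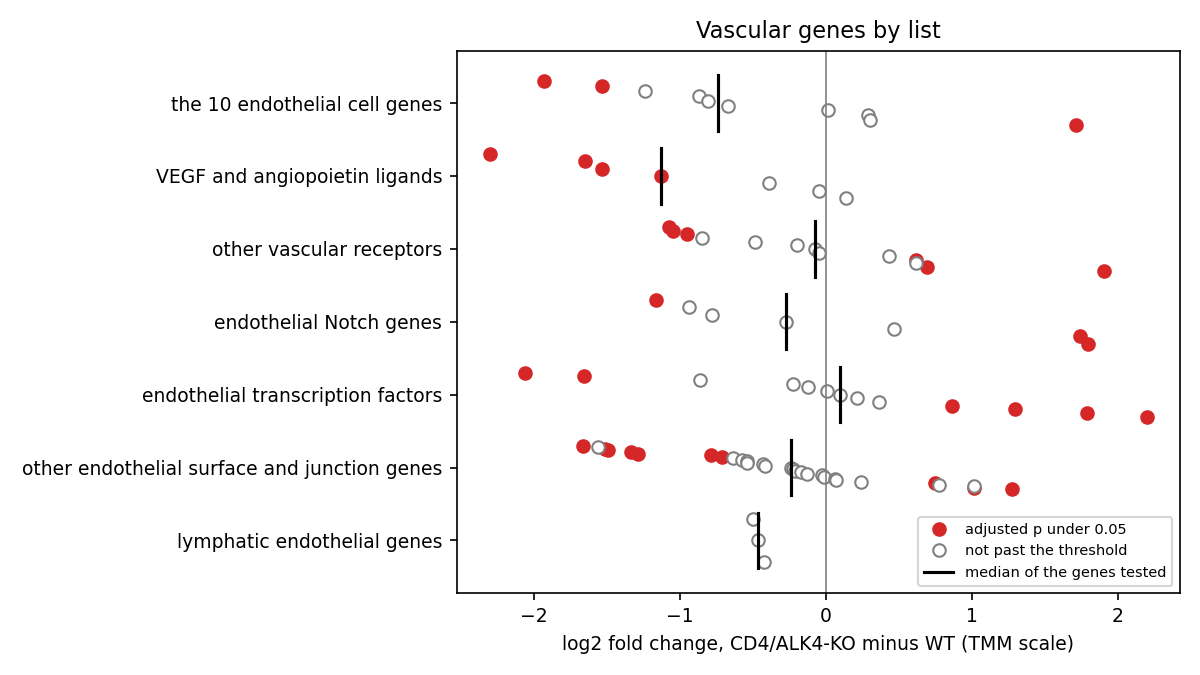
Log2 fold change of every tested gene of the endothelial cell genes and the 6 other vascular lists, CD4/ALK4-KO minus WT on the TMM scale. Filled red points passed an adjusted p of 0.05, open points did not, and black bars are medians. Ligand genes have the lowest median (-1.13), and the red points at the right of the receptor, Notch and transcription factor lists are genes such as *S1pr1*, *Notch1* and *Ets1*. On the T cell receptor scale 68 of the 72 genes of the other lists were lower, as were 93.3% of all genes tested.

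Several other marker lists held genes that were lower under the CD4/ALK4-KO label. The background for these lists and for the blood cell lists is 15.4% lower and 17.4% higher among all genes tested. Platelet and megakaryocyte genes were counted because platelets also carry *Vwf* and *Pecam1* products. They summed to 408 and 318 CPM under the WT label and to 229 and 253 CPM under the CD4/ALK4-KO label, with 2 of 8 tested lower (*Pf4* at -1.23 and *Ppbp* at -0.71) and 1 higher (*Itgb3* at 1.73). Pericyte and smooth muscle genes, which mark the cells around vessels, summed to 237, 187, 99.6 and 107 CPM, with 2 of 8 lower (*Acta2* at -1.54 and *Pdgfrb* at -0.73), or 1 by DESeq2's Wald test. Their ratio of WT to CD4/ALK4-KO was 2.05, compared with 1.43 for the members other than *Pecam1*. *Acta2* alone gave 176, 124, 52.4 and 51.1 of the CPM in this sum, so the ratio of 2.05 rests largely on that gene. *Kcnj8* (0.16) and *Tagln* (-0.14) did not pass the test. Fibroblast genes summed to 9052, 9348, 6743 and 6274 CPM with 4 of 10 lower, *Col3a1* (-0.93), *Dcn* (-0.69), *Lum* and *Dpt*. Lung epithelial genes summed to 1003, 973, 649 and 516 CPM with 5 of 10 lower, *Krt18* (-1.12), *Krt8* (-1.09), *Scgb1a1* (-0.73), *Sftpc* and *Sftpa1*, and 2 higher, *Epcam* and *Cdh1*. The part of these cells in the values of the endothelial cell genes was not tested.

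Markers of blood cells took other courses. All 8 of 8 B cell genes were higher on the TMM scale (*Ms4a1* at 2.16 and *Cd79b* at 1.69 among them), at 72.6, 60.3, 213 and 439 CPM in sum. Macrophage and monocyte genes summed to 6883, 7835, 6978 and 6801 CPM, and 1 of 10, *Csf1r*, was higher. Neutrophil genes, with 3 of 10 higher (*Csf3r*, *Cxcr2* and *Ltf*), summed to 962, 1425, 1513 and 979 CPM. Among the erythroid genes, *Alas2* (-0.65) did not pass the test, and the list had a summed level of 2065, 4607, 3001 and 1201 CPM. On the T cell receptor scale 1 B cell gene was higher and 1 lower, and all 10 macrophage and all 10 neutrophil genes were lower. The level of *Pecam1*, which leukocytes share, thus stood beside T and B cell genes that were higher under the CD4/ALK4-KO label on the TMM scale, and their part in it was not tested.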

How the data were processed

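Transcripts of CD4+ T cells from lung tumors were sequenced in 4 libraries, of which the sample labels place 2 in WT and 2 in CD4/ALK4-KO and give the replicate numbers. Single-end reads of 75 bp were aligned by the authors to mm10 (HISAT2) and counted per gene (htseq-count, intersection-nonempty), and raw counts per gene symbol were deposited. Tool versions, gene annotation and strand option are not given in the sources used here, and the kit does not mark strand. Total counts ranged from 11823908 to 13943237. Replicates differed by more than sampling noise (chi-square per degree of freedom 16.0 for WT and 28.7 for CD4/ALK4-KO).

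From the counts, edgeR 4.0.16 in R 4.3.3 was run with filterByExpr, TMM and a robust quasi-likelihood fit of genotype alone, with Benjamini-Hochberg adjustment over the 13919 genes tested, and was tested on simulated data. SE was taken as the size of the log2 fold change over the square root of its F statistic. The alternatives were DESeq2 1.42.0, its size factors, upper quartile and T cell receptor scaling (7 genes), other count filters, the likelihood ratio test, replicate blocks and each library left out. Lengths and positions are from GENCODE M21 on GRCm38, sequences from RefSeq tables on GRCm38.p6. Members and lists were chosen with earlier results of these data known. All members are named, and of other lists the 4 genes with the highest mean count and any gene named beside a small count of calls, chosen after its values were seen. Vascular lists hold ligands, receptors, Notch genes, transcription factors, surface and junction genes, and lymphatic genes. Values of some list genes are not reported here.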

Additional observations from a re-analysis of the deposited data

How the results depend on the processing

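*Egfl7* and *Pecam1* passed the test under all 13 alternatives each, *Pecam1* with a turned direction under T cell receptor scaling. The members called lower were 2, and 1 with DESeq2 size factors, without the low-count filter, with a minimum of 10 counts per library (7 members left), with DESeq2's Wald test and with the replicate block, with *Cldn5* lost each time (adjusted p from 0.051 to 0.11 in the 4 where it was tested). T cell receptor scaling gave 10 lower and 0 higher members, and 68 lower and 0 higher vascular genes, where 93.3% of all genes tested were lower. With each library left out in turn, lower members ranged from 1 to 5, lower vascular genes from 9 to 23 (17 with all libraries) and higher ones from 6 to 14 (12 with all libraries). Both counts were lowest without a WT library, at 9 lower and 7 higher without WT replicate 1 and 11 lower and 6 higher without WT replicate 2. *Cldn5* lost its call when WT replicate 1, WT replicate 2 or CD4/ALK4-KO replicate 1 was left out (edgeR adjusted p 0.36, 0.29 and 0.12). Values that turned sign were *Pecam1* (-0.67), *Kdr* (-2.34), *Flt1* (-2.07) and *Vwf* (-2.02) under T cell receptor scaling, *Kdr* with upper quartile scaling (-0.051), the replicate block (-0.0015) and without WT replicate 1 (-0.055) or CD4/ALK4-KO replicate 2 (-0.23), and *Vwf* without the latter (-0.31). As each library was left out, *Kdr* ran from -0.23 to 0.25 and *Vwf* from -0.31 to 0.76. Same-numbered libraries did not deviate together (r = -0.21 across 13919 genes, which are not independent). With 2 libraries per group the crossed pairing has the opposite value by construction. This value therefore cannot show whether same-numbered libraries shared a preparation. The replicate block changed the call of no member but *Cldn5* and gave 15 lower and 8 higher vascular genes, and 1444 lower and 1768 higher genes in all. A crossed pairing, chosen after seeing the data, gave 2 lower and 1 higher members, 22 and 12 vascular genes, and 3037 and 3118 genes in all. Counts under 25 in *Tie1*, *Cldn5* and *Plvap* limit their precision in the libraries labelled CD4/ALK4-KO. *Tie1* and *Plvap* were under 25 counts in the WT-labelled libraries as well. In replicate 1 of CD4/ALK4-KO the same limit holds for *Egfl7* (16 counts), *Cdh5* (22 counts) and *Tek* (23 counts).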
